A study of Rattus norvegicus with 21 samples.

Results

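The comparison described here sets stressed rats given agomelatine against stressed rats given no drug. The tissue was the dentate gyrus of the hippocampus. Its members were taken from the sample titles: 3 rats under stress with agomelatine and 3 rats under stress alone, 6 of the 18 animals and of the 21 arrays in the series. All were male wild-type Wistar rats, 2 months old. The agomelatine rats were kept on an unpredictable chronic mild stress schedule for 6 weeks and received a daily intraperitoneal injection of agomelatine, 40 mg/kg in hydroxyethylcellulose, in the last 2 weeks. The stress rats had the same 6 weeks of stress, and their labels call them untreated and do not say whether they were injected with a vehicle. The remaining animals were 9 stressed rats given fluoxetine, imipramine or tianeptine (3 each, 10 mg/kg, in water or saline) and 3 unstressed controls, whose RNA was measured on 2 arrays each.

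Agomelatine is an antidepressant that activates the melatonin receptors and blocks the serotonin 5-HT2C receptor. The dentate gyrus holds granule neurons, which send zinc-rich and opioid-peptide-rich mossy fibres to the CA3 field, beside interneurons, hilar mossy cells, astrocytes, and oligodendrocytes, which wrap axons in myelin. In tissue RNA of this kind, fewer cells of a type and less RNA per cell cannot be told apart.

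Values are log2 signals of probe sets as the authors normalized them, and a difference of 1 is a doubling. A gene is said to have risen or fallen where limma's adjusted p was under 0.05 in a fit of all 18 animals. The 6 animals were not alike in the tissue markers. Agomelatine rat 1 had a choroid plexus score (mean deviation of the marker genes from their average over all animals) of 2.75, and the other agomelatine rats had -0.10 and -0.16. Stress rat 1 had 0.56 and the other stress rats -0.22 and -0.09, so a rat of each group carried these markers. Transthyretin (Ttr), the main choroid plexus transcript, read 14.01, 7.58 and 7.29 in agomelatine rats and 11.77, 7.13 and 8.27 in stress rats. The median gene SD was 0.114 among agomelatine rats and 0.082 among stress rats. The labels do not say that rats were dissected or arrays run together. A further technical axis was available, because the repeat arrays of the 3 controls differed from their first arrays. Placed along that difference (0 is the average animal, 1 the full step to a repeat array), agomelatine rats lay at 0.33, 0.49 and 0.44, and stress rats at -0.04, -0.20 and -0.44.

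**Figure D1:**
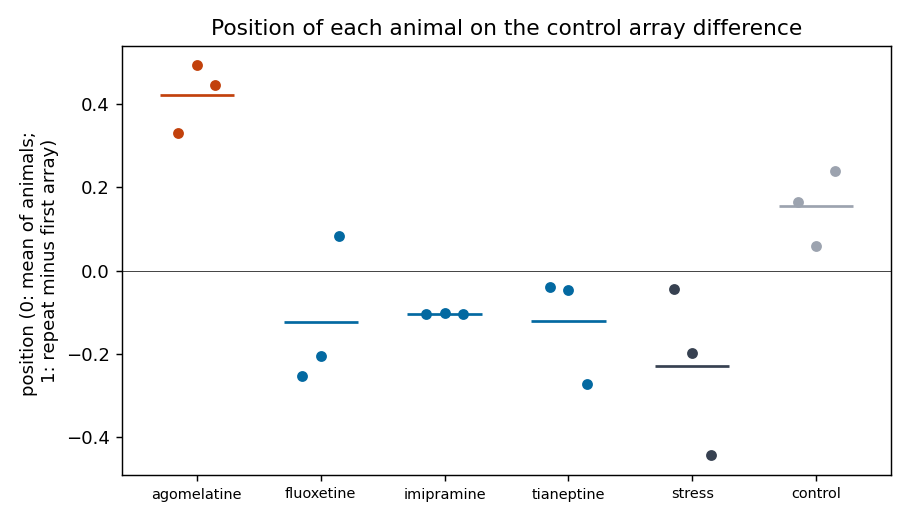
Position of each animal (points, bar at the group mean) along the average difference between repeat and first control arrays; 0 is the mean of the animals. The 3 agomelatine rats lie between 0.33 and 0.49, above every other animal. Each control point comes from the average of its first and repeat array, and does not show where either array lies.

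Under agomelatine 452 genes rose and 711 fell, against stress alone, of 10804 genes tested (10.8% in either direction, 4.18% up and 6.58% down), and 27% had an unadjusted p under 0.05. The differences were mostly small: the median size among called genes was 0.31, 78 reached 0.5, and 3 reached 1. The 3 were Meis2, Opalin and Sfrp2. In 1111 of the called genes the animals of both groups did not overlap, which also held for 25.2% of all genes tested. The genes named below for the largest rises and falls were picked from these 1111. Their lack of overlap therefore follows from the choice. The count depended on the samples and the model. Fitting the 6 animals alone called 163 genes, without stress rat 2 the count was 573, and without stress rat 3 it was 652. Without agomelatine rat 1, 261 genes rose, and without it and stress rat 1 together 204 rose. Of the 1163 genes, 379 were called with the same sign in every one of the 6 fits that left out an animal (151 rose and 228 fell). With the array difference as a covariate 97 genes were called, of which 46 were among the 1163. Genes that rose had also a repeat-array difference above 0 in 379 of 452 cases (median 0.10), against 4699 of 10804 genes tested (median -0.02). Genes that fell had it above 0 in 59 of 711 (median -0.15). Of 111 called genes that the naming rule picked, 16 were still called with that covariate: Opalin, Ermn, Klk6, Myo1d, Sgk1, Homer1, Insig1, Hsp90aa1, Rpl39, Fancd2osl1, Penk, Pdyn, Rasl10a, Zdhhc22, Slc30a3 and Kcng1. The other called genes named below were not. Fitted on the 6 animals alone, 48 of the 111 were called. The part of the array difference in these calls was not tested. Giving all arrays equal medians turned the split to 811 rises and 423 falls, against 452 and 711, and a second quantile normalization to 638 and 642.

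**Figure D2:**
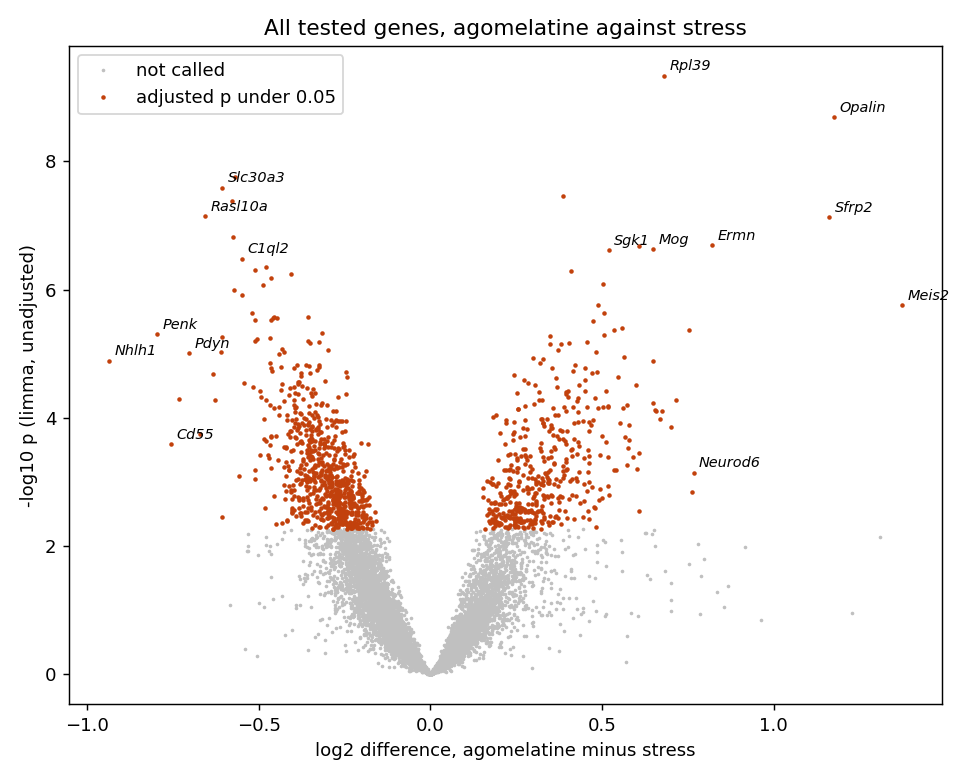
Each point is a gene: the x axis is the log2 difference, agomelatine minus stress, and the y axis is -log10 of limma's unadjusted p. The called genes (orange) number 452 on the right and 711 on the left, and 78 of them reach 0.5 in size.

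Genes of mature oligodendrocytes and myelin were higher in agomelatine rats: 17 of 24 tested rose and none fell, where 4.18% of all genes tested rose and 6.58% fell. Their median difference was 0.45, against -0.03 over all genes. Opalin, a membrane protein of myelinating oligodendrocytes, read 10.15, 9.63 and 9.96 in agomelatine rats and 8.88, 8.75 and 8.59 in stress rats. All agomelatine animals lay above all stress animals, and the mean was 2.26 times as high (log2 difference 1.18 ± 0.11 SE, adjusted p = 1.1e-05). Ermn, which encodes the oligodendrocyte cytoskeletal protein ermin, read 11.02, 10.46 and 10.47 against 9.89, 9.80 and 9.79 (0.82, adjusted p = 0.0002). Myelin oligodendrocyte glycoprotein (Mog) read 11.16, 10.78 and 11.06 in agomelatine rats, against 10.45, 10.37 and 10.24 in stress rats (0.65, adjusted p = 0.0002), and was not called with the array difference as a covariate (0.52, adjusted p = 0.11). Mal, a myelin proteolipid, rose by 0.67, Fa2h, which makes hydroxylated myelin lipids, by 0.67, Aspa, which cleaves N-acetylaspartate, by 0.56, and Mbp, the myelin basic protein, by 0.48. A second, dimmer Mbp probe set differed by -0.12, so the probe sets of this gene disagree in direction. Agomelatine rat 1 had the highest signal for most of these genes, and the oligodendrocyte score of the agomelatine rats was 0.75, 0.31 and 0.34, against 0.05, -0.02 and -0.10 in stress rats. That score includes Enpp2, which is also a choroid plexus gene and differed by 0.42 to 1.77 in the fits that left out an animal. The part of choroid plexus signal in the score was not tested. None of 10 precursor genes passed the test (median 0.08), and Pdgfra, the receptor that marks precursors, read 10.11, 9.77 and 9.54 against 9.84, 9.42 and 9.66. Klk6, a protease of oligodendrocytes, rose by 0.51 (adjusted p = 0.0014), and Mag, an adhesion molecule of the inner myelin wrap, rose by 0.40 (adjusted p = 0.0085). Fitted on the 6 animals alone, 7 of the 24 rose (Mag had adjusted p = 0.073 and Mal 0.058), and 2 rose with the array difference as a covariate, Opalin and Ermn. The array-repeat difference was 0.17 for Opalin and 0.15 for Ermn.

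The Opalin promoter is shown because the gene has the largest rise among the oligodendrocyte genes that passed the test (Enpp2, also on the choroid plexus list, differed by 1.31 and did not pass, adjusted p = 0.059); capitals mark ACAAAG (a motif of Sox factors such as Sox10) and CAGCTG (an E-box), searched on both strands, and none of these matches shows that a factor binds. The sequence is from RefSeq's GRCr8 (chr1:249858141-249858440, minus strand), the 250 bases before to 50 after the start, 5' to 3'.
Opalin: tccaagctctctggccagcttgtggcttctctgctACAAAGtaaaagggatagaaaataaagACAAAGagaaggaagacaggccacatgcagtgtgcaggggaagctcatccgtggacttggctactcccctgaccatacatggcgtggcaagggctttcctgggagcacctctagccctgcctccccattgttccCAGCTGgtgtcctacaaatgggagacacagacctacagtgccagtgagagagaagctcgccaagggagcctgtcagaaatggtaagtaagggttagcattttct
It holds ACAAAG 2 times and CAGCTG 1 time. Of 33469 promoters of the same length, 18.8% hold ACAAAG, 15.1% hold CAGCTG and 14.2% hold TATAAA, a core promoter motif searched here as well. The Opalin window holds no TATAAA.

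**Figure D3:**
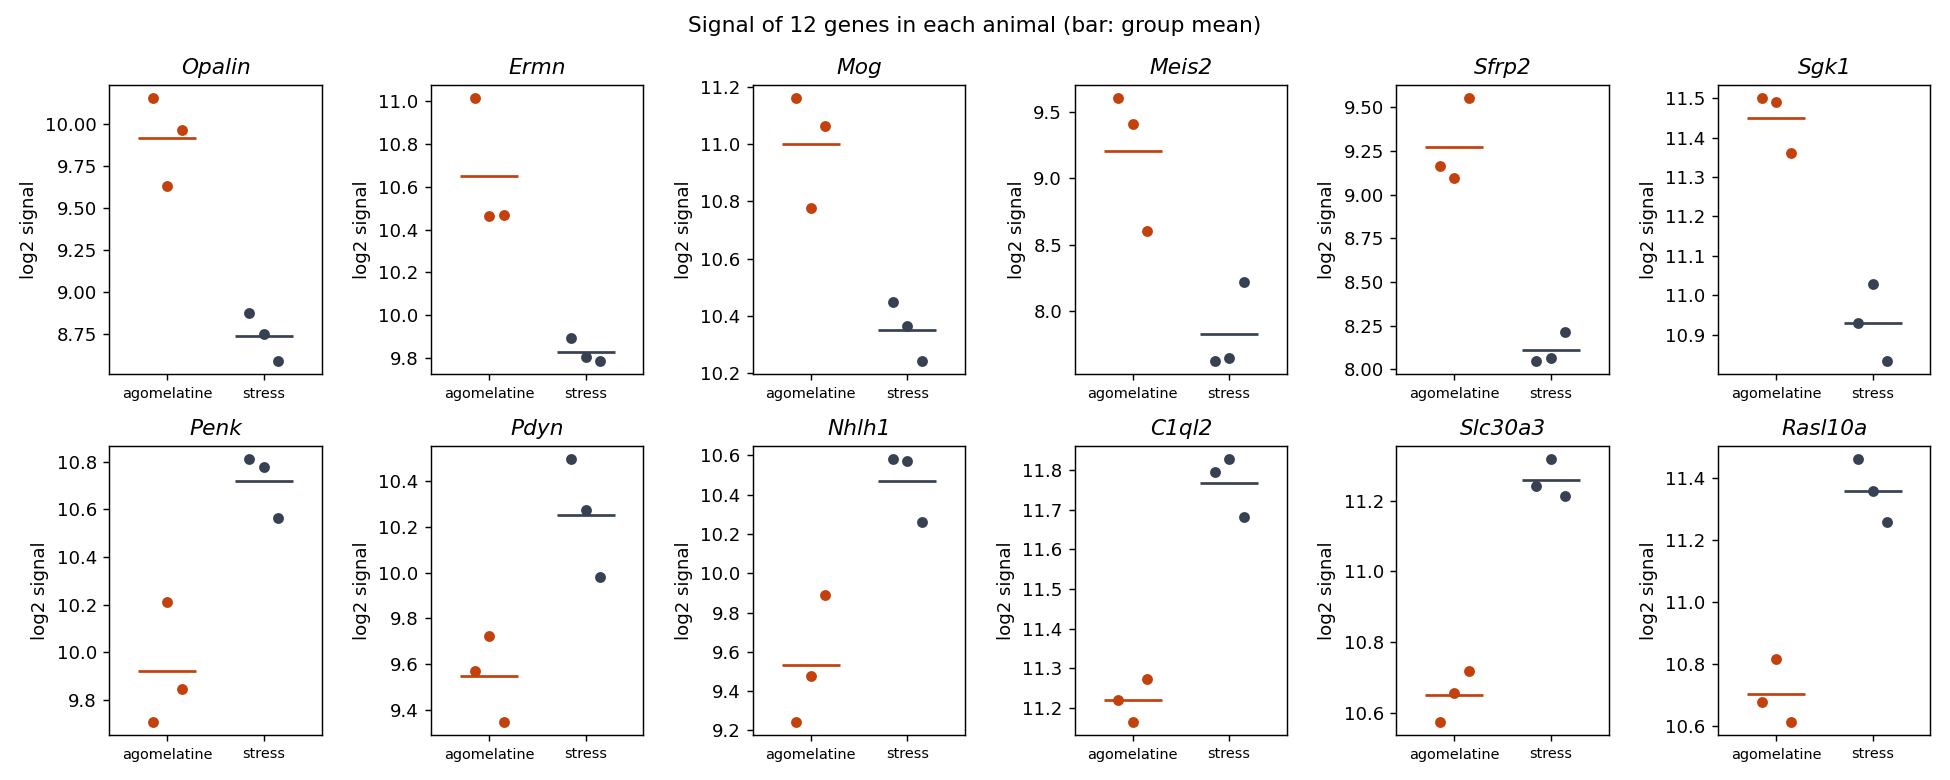
Log2 signal of 12 genes in each of 3 agomelatine rats (left) and 3 stress rats (right), with bars at the means; each panel has its own scale. Opalin, Ermn, Mog, Meis2, Sfrp2 and Sgk1 are higher and Penk, Pdyn, Nhlh1, C1ql2, Slc30a3 and Rasl10a lower in agomelatine rats, and no group overlaps the other. Genes named for the largest differences were picked from those without overlap.

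Granule neuron genes were lower: 4 of 8 fell and none rose (median -0.24), where 6.58% of all genes tested fell and 4.18% rose. All 8 were below 0, where 43.4% of all genes tested had a value above 0. Rasl10a, a small GTPase, read 10.68, 10.82 and 10.61 in agomelatine rats and 11.46, 11.36 and 11.26 in stress rats (-0.65 ± 0.08 SE, adjusted p = 9.9e-05). C1ql2, a synaptic organiser of mossy fibre terminals, read 11.22, 11.16 and 11.27 in agomelatine rats, against 11.79, 11.83 and 11.68 in stress rats (-0.55; with the array difference as a covariate -0.54, adjusted p = 0.072). For both, every agomelatine rat lay below every stress rat. C1ql3 fell by 0.24 and Pdzd2 by 0.40. Prox1, the transcription factor that defines granule neurons, read 11.05, 11.26 and 11.49 against 11.60, 11.56 and 11.34, which overlap (-0.24, adjusted p = 0.091), and Calb1 did not pass either (-0.19). With the array difference as a covariate 1 of the 8 fell.

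Outside that list, Nhlh1, a neuronal basic helix-loop-helix transcription factor, had the largest fall among all called genes: 9.24, 9.47 and 9.89 in agomelatine rats, against 10.58, 10.57 and 10.26 in stress rats (-0.94 ± 0.16 SE, adjusted p = 0.0021). Proenkephalin (Penk), the enkephalin precursor, read 9.71, 10.21 and 9.85 against 10.81, 10.78 and 10.56 (-0.80, adjusted p = 0.0014), and prodynorphin (Pdyn), the dynorphin precursor of mossy fibres, 9.57, 9.72 and 9.35 against 10.50, 10.27 and 9.98 (-0.70, adjusted p = 0.0018). Slc30a3, the transporter that fills synaptic vesicles with zinc, read 10.58, 10.66 and 10.72 against 11.24, 11.32 and 11.21 (-0.61, adjusted p = 6.9e-05). In these 4 genes the agomelatine rats all lay below the stress rats. Penk, Pdyn, Slc30a3 and Rasl10a were still called with the array difference as a covariate, and Nhlh1 was not (-1.19, adjusted p = 0.075). Of 17 interneuron and neuropeptide genes, Penk and Pdyn fell, none rose, and somatostatin (Sst) read 11.55, 11.62 and 11.36 against 11.53, 11.35 and 11.90. Of 23 zinc transporter and metallothionein genes 4 fell (median -0.10), among them Mt1, which binds zinc (-0.38). Over all genes tested 6.58% fell.

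The Pdyn and Nhlh1 promoters (chr3:137366454-137366753 and chr13:87054885-87055184, GRCr8, RefSeq, both minus strand, same window) are shown for the opioid and transcription factor genes that fell; capitals mark TATAAA, the 1 match that the same search gave in each.
Pdyn: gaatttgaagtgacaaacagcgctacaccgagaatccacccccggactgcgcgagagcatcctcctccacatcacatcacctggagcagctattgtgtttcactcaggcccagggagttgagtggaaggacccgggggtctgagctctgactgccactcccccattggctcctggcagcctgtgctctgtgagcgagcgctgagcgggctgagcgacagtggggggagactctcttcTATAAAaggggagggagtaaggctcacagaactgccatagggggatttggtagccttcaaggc
Nhlh1: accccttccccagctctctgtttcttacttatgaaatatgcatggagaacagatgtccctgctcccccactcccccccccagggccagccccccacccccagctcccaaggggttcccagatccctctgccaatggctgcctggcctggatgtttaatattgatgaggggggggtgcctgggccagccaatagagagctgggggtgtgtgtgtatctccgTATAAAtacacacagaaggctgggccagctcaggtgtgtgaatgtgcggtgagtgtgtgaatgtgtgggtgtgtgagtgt
Neither holds ACAAAG or CAGCTG. No sequence was available here for Penk, Ermn or Mog.

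**Figure D4:**
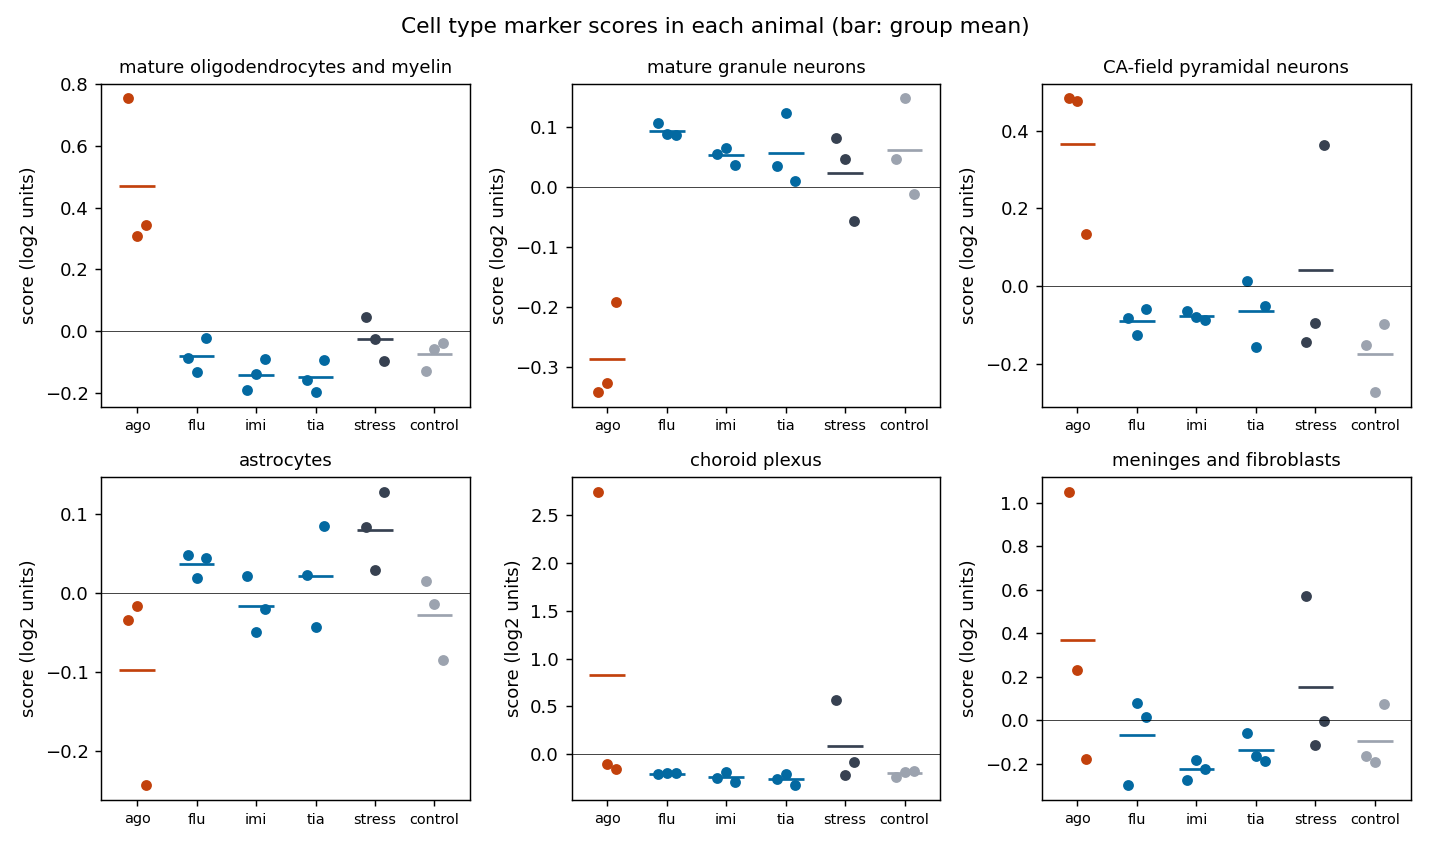
Marker scores (mean deviation of each list's tested genes from their average over animals, log2 units) for each animal in 6 groups: ago, agomelatine; flu, fluoxetine; imi, imipramine; tia, tianeptine; stress; control. Agomelatine rats lie highest in the oligodendrocyte panel and lowest in the granule neuron panel, and 1 agomelatine rat is at 2.75 in the choroid plexus panel.

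Of genes typical of pyramidal neurons of the neighbouring CA fields, 5 of 18 tested rose and 1 fell (median 0.26), where 4.18% of all genes tested rose and 6.58% fell. Meis2, a homeobox transcription factor, had the largest rise among the called genes: 9.60, 9.41 and 8.60 in agomelatine rats, against 7.62, 7.65 and 8.22 in stress rats (1.37 ± 0.20 SE, adjusted p = 0.00076). The groups did not overlap and agomelatine rat 3 lay nearest to the stress rats. Neurod6, a pyramidal neuron transcription factor, read 11.81, 11.72 and 11.68 against 10.72, 11.15 and 11.04 (0.77, adjusted p = 0.015), and was not called without stress rat 1 (0.64, adjusted p = 0.061). Nectin3, an adhesion molecule of synapses, rose by 0.60, and Pcp4, a calmodulin-binding protein, fell by 0.18. The CA-field score was 0.48, 0.48 and 0.13 in agomelatine rats and -0.14, -0.10 and 0.36 in stress rats, with stress rat 3 above agomelatine rat 3. Ccn3, a secreted matrix protein of this list, read 9.58, 9.66 and 9.25 in agomelatine rats and 8.33, 8.40 and 10.72 in stress rats. The number of list genes that rose was 3 without stress rat 1 and 8 without stress rat 3, and with the array difference as a covariate none rose (Meis2 1.52, adjusted p = 0.076). Of 6 mossy cell genes and 15 immature neuron genes none passed, and doublecortin (Dcx), a marker of new neurons, read 9.70, 9.44 and 9.44 against 9.33, 9.05 and 9.62.

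Of 14 astrocyte genes all had values below 0 (median -0.18) and 3 fell: Aldh1l1, Ntsr2 and Slc4a4, by 0.24, 0.33 and 0.22. Without agomelatine rat 3 Ntsr2 had -0.28 (adjusted p = 0.055) and Aldh1l1 -0.20 (0.056); without stress rat 3 Ntsr2 had -0.23 (0.087) and Aldh1l1 -0.23 (0.060), and without stress rat 2 Aldh1l1 had -0.23 (0.068). Gfap, the astrocyte filament protein, read 11.54, 11.40 and 11.13 in agomelatine rats and 11.46, 11.62 and 11.55 in stress rats, which overlap. None of 15 microglial genes passed (median -0.11). Of 20 endothelial and pericyte genes 2 fell, including Cldn5, the tight junction protein (-0.36, repeat-array difference -0.38), and 1 rose. The rise was Abcc9 (0.27), whose dimmer second probe set differed by -0.03. Its call was kept in 1 of the 6 fits that left out an animal. Over all genes tested 6.58% fell and 4.18% rose. The 8 choroid plexus and 12 meningeal genes had medians of 0.79 and 0.18 and none passed. Agomelatine rat 1 and stress rat 1 had the highest scores of the 6 animals in both lists. The meningeal scores were 1.05, 0.23 and -0.18 in agomelatine rats and 0.57, -0.11 and -0.003 in stress rats. Of the 12 meningeal genes 2 had values below 0.

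Of the known receptors of agomelatine, Mtnr1a and Mtnr1b, the melatonin receptors, averaged 5.17 and 6.63 over all animals, below the filter on dim genes (7.165), and were not tested. The 5-HT2C receptor gene Htr2c read 11.86, 9.48 and 7.31 in agomelatine rats and 7.93, 7.14 and 9.90 in stress rats. The groups overlap and each has high and low animals (1.23 ± 0.73 SE, adjusted p = 0.30). Htr2c was highest in agomelatine rat 1, which carried the choroid plexus markers. Stress rat 3, with the highest CA-field score among stress rats, also lay high. Stress rat 1, which carried choroid plexus markers too (score 0.56), read 7.93. With a choroid plexus score of -0.10, agomelatine rat 2 read 9.48. The part of neighbouring tissue in the Htr2c values was not tested. Of 12 melatonin and serotonin receptors tested, Htr1a, the 5-HT1A receptor, fell by 0.40 (10.76, 10.84 and 11.22 against 11.44, 11.23 and 11.34; adjusted p = 0.012) and Htr4 by 0.31 (10.40, 10.36 and 10.42 against 10.72, 10.73 and 10.67; adjusted p = 0.015), and none rose. The shares over all genes tested were 6.58% that fell and 4.18% that rose. Agomelatine rat 3 was close to the stress rats in Htr1a. Without agomelatine rat 1 Htr1a had -0.31 (adjusted p = 0.054), and without stress rat 2 Htr4 had -0.30 (adjusted p = 0.052). Of 19 clock genes Tef fell by 0.26 (adjusted p = 0.042), a call lost without agomelatine rat 1 (-0.20), without agomelatine rat 2 (-0.29) and without stress rat 2 (-0.22) or 3 (-0.24). Bmal1, Per1 and Per2 differed by -0.06, -0.11 and -0.10 and did not pass.

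Among stress-hormone genes, Sgk1, the serum- and glucocorticoid-induced kinase, read 11.50, 11.49 and 11.36 in agomelatine rats against 10.93, 11.03 and 10.83 in stress rats (0.52 ± 0.07 SE, adjusted p = 0.0002). No animal overlapped, and the call held with the array difference as a covariate. Of 21 glucocorticoid-responsive genes 3 rose and 3 fell (median -0.10), beside 4.18% and 6.58% of all genes tested, and Sgk1 also is expressed in oligodendrocytes. Fkbp5, another target, read 9.85, 9.75 and 9.65 against 10.07, 10.21 and 9.79 and did not pass (-0.27, adjusted p = 0.16). The receptor genes Nr3c1 and Nr3c2 differed by 0.01 and 0.18, neither past the threshold (adjusted p = 0.97 and 0.065). Of 31 activity-regulated genes 2 rose, Dusp5, a phosphatase of ERK, by 0.75 (8.72, 9.20 and 9.15 against 8.07, 8.34 and 8.40) and Homer1, a postsynaptic scaffold, by 0.46, while Fos, Arc and Egr1 differed by 0.08, 0.03 and -0.03. With the array difference as a covariate Dusp5 was not called (0.83, adjusted p = 0.092), and without agomelatine rat 1 and stress rat 1 Homer1 was not (0.35, adjusted p = 0.11). Bdnf, the neurotrophin, read 8.76, 8.74 and 8.92 against 8.86, 8.72 and 8.72.

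Sfrp2, a secreted inhibitor of Wnt signals, read 9.17, 9.10 and 9.55 against 8.05, 8.07 and 8.22 (1.16 ± 0.14 SE, adjusted p = 9.9e-05), without overlap, and was not called with the array difference as a covariate (1.04, adjusted p = 0.072). Of 38 Wnt genes it alone rose, and 2 fell. Among 39 potassium channel genes 5 fell and 2 rose (12.8% and 5.1%), where 6.58% of all genes tested fell and 4.18% rose. Kcng1, a modifier of Kv2 channels, read 10.68, 10.85 and 10.88 against 11.16, 11.21 and 11.11 (-0.36, adjusted p = 0.0033). Adcy1, a calcium-stimulated adenylyl cyclase, fell by 0.36, and Slc1a1, a neuronal glutamate transporter, by 0.36. Gabra5, a subunit of extrasynaptic GABA-A receptors, rose by 0.47 and Insig1, a regulator of cholesterol synthesis, by 0.49. Of 71 oxidative phosphorylation genes 10 rose and 2 fell, and of 68 ribosomal genes 4 rose and 4 fell (5.9% each way, near the shares over all genes). Rpl39, of the large ribosomal subunit, had 12.66, 12.55 and 12.51 in agomelatine rats, against 12.03, 11.87 and 11.78 in stress rats (0.68, adjusted p = 5e-06). Its repeat control arrays exceeded the first by 0.73. Ndufs5, of complex I, and H1f4, a linker histone, rose by 0.47 and 0.41, with repeat-array differences of 0.33 and 0.52. Rab1b, a GTPase of vesicle traffic, fell by 0.61 with a repeat-array difference of -0.68. The labels give no cause for the array difference.

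Further genes with large differences belonged to none of these cell type lists. Socs2, a feedback inhibitor of cytokine and growth hormone signals, read 8.72, 8.79 and 9.04 in agomelatine rats, against 7.83, 8.23 and 8.34 in stress rats (0.72 ± 0.14 SE, adjusted p = 0.0041). Myo1d, an unconventional myosin, read 9.56, 9.07 and 9.11 against 8.64, 8.44 and 8.72 (0.65) and was still called with the array difference as a covariate. Socs2 was not called with that covariate (0.95, adjusted p = 0.092). Neither gene overlapped between the groups, and Tekt5, a tektin, rose by 0.70. Zdhhc22, a palmitoyltransferase, read 9.40, 9.71 and 9.94 in agomelatine rats, against 10.25, 10.37 and 10.33 in stress rats (-0.63, adjusted p = 0.0026), and it too was still called with that covariate. Thrsp, a regulator of lipid synthesis, read 9.46, 9.19 and 9.34 against 9.96, 9.97 and 10.24 (-0.73, repeat-array difference -0.29). Cd55, which restrains complement, fell by 0.75, Ptpa, an activator of protein phosphatase 2A, by 0.67, and Tiam1, an exchange factor for Rac, by 0.51. All agomelatine rats lay below all stress rats in these 5 genes. For genes named for the largest falls this follows from how they were picked. Antkmt, a lysine methyltransferase, read 8.63, 8.61 and 8.63 against 9.21, 9.23 and 9.16 (-0.58), with a repeat-array difference of -0.40. Fitted on the 6 animals alone, Tekt5 (adjusted p = 0.058), Ptpa (0.055) and Myo1d (0.052) were not called.

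The counts of the remaining signalling and housekeeping lists are given beside 4.18% of all genes that rose and 6.58% that fell. Of 27 glutamate receptor and transporter genes 1 fell, and of 19 GABA genes 2 rose. Of 29 presynaptic genes 3 rose and 1 fell, and of 32 cyclic AMP genes 1 rose and 3 fell. Of 26 growth factor genes 1 rose and 2 fell, and of 11 corticosteroid, CRH and vasopressin system genes 1 rose. Hsp90aa1, a cytosolic chaperone, read 12.72, 12.73 and 12.61 in agomelatine rats, against 12.32, 12.39 and 12.38 in stress rats (0.32, adjusted p = 0.0057), and kept its call with the array difference as a covariate. It was the single rise among 29 heat shock and unfolded protein genes, of which 2 fell, including Xbp1, a transcription factor of the unfolded protein response (-0.28). None of 16 inflammation and interferon genes passed in either direction. Of 20 cholesterol genes and 22 matrix genes 1 each rose, of 33 lysosomal genes 1 rose and 1 fell, and of 36 ubiquitin-specific proteases 2 rose and 4 fell. Grn, the lysosomal protein progranulin, fell by 0.41 with a repeat-array difference of -0.38. Of 19 histone genes 2 rose and 1 fell, and of 3 ependymal genes 1 rose. The histone gene H2az1 was counted by its brightest probe set, which differed by -0.10. A dimmer H2az1 probe set, also above the filter, differed by 1.88 and did not enter the counts. Olfactory receptor genes, a list of dim signals kept for comparison, had 4 falls among 64 (median -0.10).

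Set against the 9 stressed rats given the other drugs (the same 3 agomelatine rats enter both comparisons), 982 genes rose and 1080 fell, 9.09% and 10% of those tested (19.1% in all), and in 12.2% of genes the 3 rats did not overlap the 9. Opalin was 1.22 higher than in the other drug groups (8.55 to 8.90 in the 9 rats, adjusted p = 2.2e-07), and 22 of the 24 oligodendrocyte genes rose (median 0.57). Of the granule neuron genes 6 of 8 fell (median -0.35) and of the CA-field genes 10 of 18 rose (median 0.40). Penk was lower by 0.81, Pdyn by 0.65, Slc30a3 by 0.64 and Nhlh1 by 0.87, and Sgk1 was higher by 0.55. Against stress alone the same genes differed by -0.80, -0.70, -0.61, -0.94 and 0.52. Fancd2osl1, whose role is not described here, read 9.40, 9.56 and 9.64 in agomelatine rats against 8.58, 8.94 and 9.13 in stress rats, while its difference from the other drugs was 0.05 (adjusted p = 0.79). The dose and vehicle of agomelatine differ from those of the other drugs, and the count was 1332 without agomelatine rat 1.

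**Figure D5:**
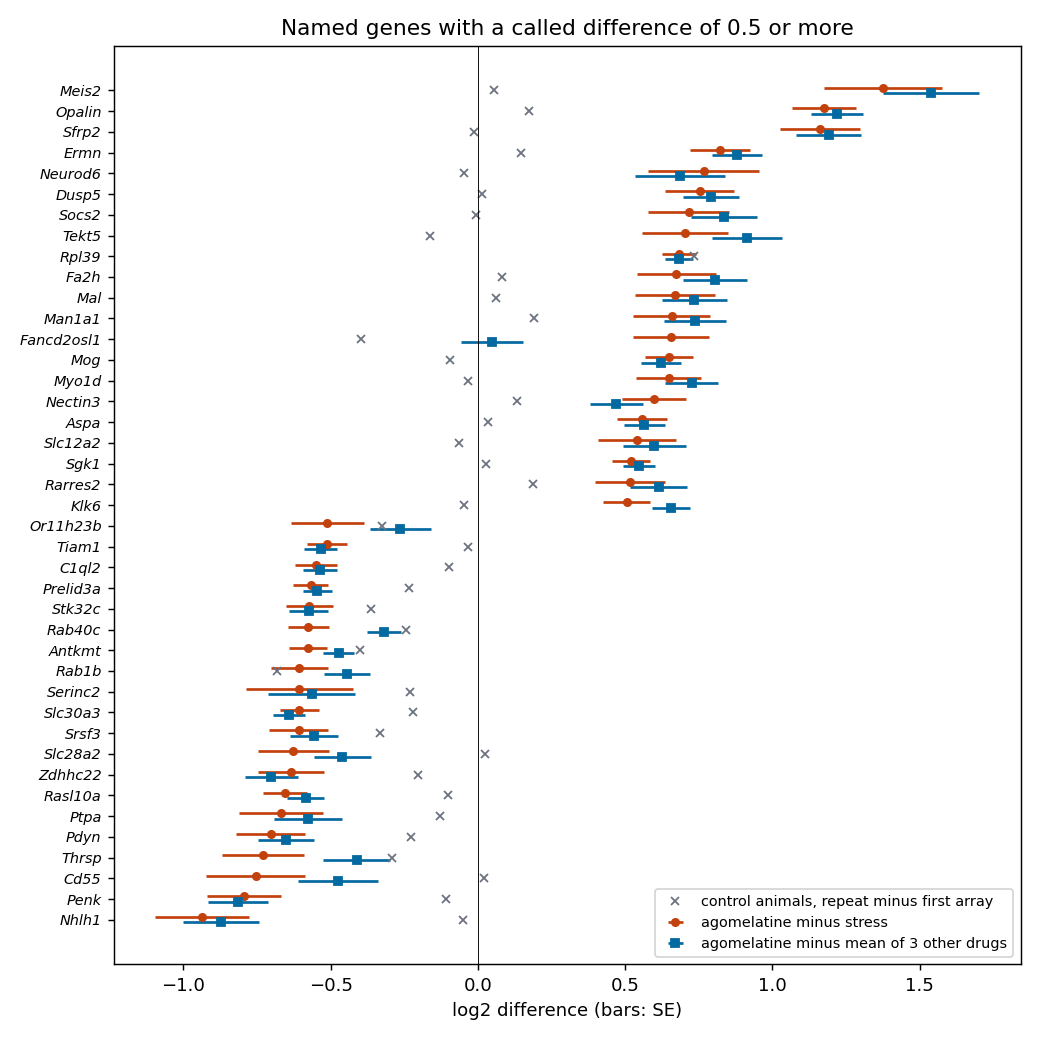
Log2 difference with SE of named genes that passed the test and reached 0.5 in either direction, agomelatine minus stress (circles) and agomelatine minus the mean of the 3 other drugs (squares); crosses are the repeat minus first array difference of the controls. Circle and square lie close together for most genes, and Rpl39 and Rab1b have a cross as far from 0 as the circle.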

How the data were processed

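RNA of the dentate gyrus of 18 rats was measured on 21 arrays; the authors deposited log2 signals per probe set. The submitters' processing notes name RMA and Affymetrix Expression Console, version 1.2, and the sources used here give no genome build. Of 29214 probe sets, 15310 had 1 gene symbol, 323 had several and 13581 are unnamed here; 15279 matched RefSeq (GRCr8, names only). For each gene the brightest probe set over all animals was used, and genes below the 25th percentile of named probe sets' means (7.165) were left out, leaving 10804. The 2 arrays of each control were averaged.

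All 18 animals were fitted with 1 mean per group (limma 3.58.1, R 4.3.3, variance trend, 12 residual degrees of freedom, Benjamini-Hochberg adjustment over all genes tested, threshold 0.05). The signal of the arrays carries no counting depth, so 3 animals a group limit the precision. Each p-value sets a difference against a within-group spread that limma pooled over all 18 animals. The median gene SD was 0.114 in agomelatine rats and 0.063 to 0.085 in the other groups, so the pooled spread may understate theirs. Replicate numbers were not treated as pairs, because the labels do not say that rats with the same number belong together. Deviations from the group means correlated at 0.16, 0.10 and -0.22 for numbers 1, 2 and 3, which does not settle whether they do. Named genes are the 15 highest and 15 lowest called genes that did not overlap, up to 5 per list, up to 8 per direction against the other drugs, and a fixed panel. Members and gene lists were chosen with earlier results of these data known. Lists are described by counts and medians, without a test of the list. Alternatives tried were other filters, weights, scalings, covariates, fits without an animal and, chosen after seeing the data, without both rats high in choroid plexus markers.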

Additional observations from a re-analysis of the deposited data

How the results depend on the processing

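Against stress, the 1163 calls (452 rises, 711 falls) became 163 (73 and 90) with the 6 animals alone, 637 (261 and 376) with array weights, 405 (167 and 238) with 1 weight per group, 704 (289 and 415) with 21 arrays and the animal as a random block, 97 (69 and 28) with the array difference as a covariate, 71 (12 and 59) with the oligodendrocyte score as a covariate, and 1957 (729 and 1228) at adjusted p under 0.1. Neither the array position nor the oligodendrocyte score overlaps between the groups, so with 3 rats a side these covariates and the treatment cannot be told apart. Rises were 830 over all probe sets and 230 with the CA-field score; equal medians gave 811 rises and 423 falls. Without agomelatine 1 and stress 1, chosen after seeing the data, 767 were called (204 rises) and 2 CA-field genes rose. Leaving out 1 rat gave 573 to 1164 calls (207 to 546 rises, 332 to 707 falls), 14 to 19 oligodendrocyte and 3 to 8 CA-field rises and 4 to 5 granule neuron falls. Oligodendrocyte rises were 7 with the 6 animals, 2 with the array difference and 1 with the oligodendrocyte score; CA-field rises 3, 0 and 0, and 2 with the CA-field score; granule neuron falls 1 with the array difference and 2 with the oligodendrocyte score. Against the other drugs, 2062 calls (982 and 1080) became 997 (508 and 489) with array weights, 810 (416 and 394) with group weights, 3442 (1664 and 1778) over all probe sets, 661 (457 and 204) with the array difference, 28 (3 and 25) with the oligodendrocyte score, 1250 (483 rises) with the choroid plexus score and 692 (161 and 531) with the CA-field score; leaving out 1 rat gave 1332 to 2219 (511 to 1121 rises, 821 to 1172 falls). The replicate number as a block gave 1067 calls against stress (414 and 653). The labels do not say that the numbers pair the rats. With the array difference Tef (0.016), Lrp6 (0.0216) and Dnajb1 (0.0378) changed sign. With the oligodendrocyte score Fa2h (-0.0023), Cdkn1a (-0.0958), Fgfr2 (-0.0284), Slc12a2 (-0.17) and Mag (-0.0097) changed sign. The oligodendrocyte and CA-field scores are means of their own list genes, and Fa2h and Mag are in the oligodendrocyte list. A list gene is thus adjusted in part for itself, and its loss with that score carries no information. The cause of the other changes was not tested.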
